A study of Xenopus laevis with 8 samples.

Results

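The ATF4 stress pathway and the genes that work beside it were followed through RNA of whole tadpole brains in which neurod2 had been edited. The set was given as 44 gene symbols: transcription factors and feedback proteins of the pathway, enzymes and transporters that supply amino acids, folate enzymes, cytosolic aminoacyl-tRNA synthetases, and stress genes of the endoplasmic reticulum (ER). A row of the count table belonged to the set when its symbol equalled a member once the final L or S and any number before it were removed. The rule found 67 rows of 41881 in all, for 41 of the 44 symbols, and 64 of them had enough counts to be tested. No row carried the symbols trib3, eif4ebp1 or ppp1r15a, which are not described further. Xenopus laevis is allotetraploid, so that most genes exist as an L and an S homeologue, and each row is 1 homeologue, called a gene copy here. The study compared 4 pools of neurod2 CRISPants with 4 control pools, and each pool held 4 whole brains of tadpoles at stage NF47. CRISPants were F0 animals raised from eggs injected with Cas9 (S. pyogenes) loaded with a guide that induces frame shifts in both neurod2 homeologues, so that each brain mixes cells with and without an edit. Controls, labelled wildtype, were siblings injected with Cas9 alone, and every animal came from a single sibship, so the error behind each p-value is that among sibling pools. Pools are named by their label numbers, and values per pool are given in the order 1, 2, 4, 5 for controls and 3, 4, 7, 9 for CRISPants.

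ATF4 is a transcription factor that is made in larger amounts when the translation factor eIF2 is phosphorylated, by kinases that sense a shortage of amino acids, unfolded protein in the ER, heme deficiency or double-stranded RNA. Its protein level is set largely at translation, which RNA counts do not measure. In mammalian cells it raises genes that import and synthesise amino acids and the synthetases that load them onto tRNA, while XBP1 and ATF6 raise the chaperones that fold protein in the ER. The same amino acid and folate enzymes are also used by growing and dividing cells, and ATF4 is produced in many cells without acute stress.

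Library totals lay between 20985937 and 25937707 counts for controls and between 18945762 and 25509904 counts for CRISPants, and 25171 gene copies were tested. The targeted gene, neurod2.L, stood at 36.9, 37.1, 38.6 and 32.9 CPM in the control pools and at 28.5, 31.1, 26.2 and 19.0 CPM in the CRISPant pools (log2 fold change -0.47, SE 0.12, adjusted p = 0.00748), and neurod2.S at 52.2, 48.2, 45.4 and 40.3 CPM in the control pools and at 39.0, 45.7, 35.0 and 26.7 CPM in the CRISPant pools (log2 fold change -0.34, SE 0.16, adjusted p = 0.111). The groups did not overlap for neurod2.L and overlapped for neurod2.S. All 10 neuronal marker symbols had rows, and their summed level of 4515 to 4923 CPM in the control pools and 4612 to 5267 CPM in the CRISPant pools fits the label of brain tissue. Of their 18 tested copies, 3 rose (16.7%) and 6 fell (33.3%), beside 21.7% and 20.8% of all genes tested. The part of these markers in the results below was not tested. Of 19 copies of cell division markers, 16 could be tested and all 16 rose, where 21.7% of all genes tested did. The summed level of these markers was 472 to 590.4 CPM in the control pools and 1030.4 to 1317 CPM in the CRISPant pools. The part of that difference in the results below was not tested. Markers of microglia and leukocytes were scarce, with sums of 8.86 to 10.7 CPM in the control pools and 5.97 to 8.09 CPM in the CRISPant pools, without overlap. Of their 8 tested copies, none rose, 3 fell (37.5%, beside 20.8% of all genes tested) and 5 did not pass. The largest drop in CPM was that of lcp1.S, from 2.44 to 0.66 CPM, whose span overlaps another annotated gene. Markers of skeletal muscle summed to 12.9 to 14.3 CPM in the control pools and 11.4 to 16.6 CPM in the CRISPant pools. Those of endothelium summed to 141 to 156 CPM in the control pools and 121 to 148 CPM in the CRISPant pools, and both lists overlapped in their sums. Of 8 tested muscle copies, 1 rose (12.5%) and 2 fell (25%). Of 14 tested endothelium copies, 1 rose (7.14%) and 3 fell (21.4%), beside 21.7% and 20.8% of all genes tested. The endothelium copies that fell were tie1.L (-0.59), tie1.S (-0.46) and cldn5.L (-0.35), and pecam1.S rose (0.62). Globins and other erythrocyte genes (809.6 to 1214 CPM in the control pools and 569 to 1543 CPM in the CRISPant pools) and genes of cartilage, fibroblasts and meninges (1531 to 1819 CPM in the control pools and 1182 to 2059 CPM in the CRISPant pools) overlapped between the groups in their sums. The latter sum was mostly ptgds.S, with 1186 to 1445 CPM in the control pools. Of the 16 tested copies of that list, 5 rose (31.25%) and 4 fell (25%), beside 21.7% and 20.8% of all genes tested. Those that rose were collagen genes, col1a1.L (1.38 on the log2 scale), col1a1.S (0.84), col1a2.L (0.70), col3a1.L (0.69) and col3a1.S (0.83), each without overlap, and their part in the results below was not tested. Those that fell were sox9.L (-0.36), sox9.S (-0.45), col1a2.S (-0.35) and lum.L (-0.75).

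Most of the set was higher in CRISPant brains. Of 64 tested copies, 45 rose, 4 fell and 15 did not pass (Benjamini-Hochberg adjusted p under 0.05 over all genes tested, edgeR quasi-likelihood test), a share of 70.3% higher and 6.25% lower. Over all genes tested, 21.7% rose and 20.8% fell, 42.4% in either direction. The members were chosen with earlier results of these data known, so this comparison is not a test of the set. The median log2 fold change of the 64 copies was 0.35, against -0.0022 over all genes. Every CRISPant pool lay above every control pool in 43 copies and below in 3, where the shares over all genes were 19.4% and 18.5%. By more than 2-fold, 8 copies rose and none fell, beside 2% and 1.58% of all genes. Levels are given in CPM, counts relative to library size after TMM scaling, which sets the bulk of genes level between libraries. In RNA from whole brains, a change in the number of cells of a type and a change in RNA per cell cannot be told apart.

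**Figure D1:**
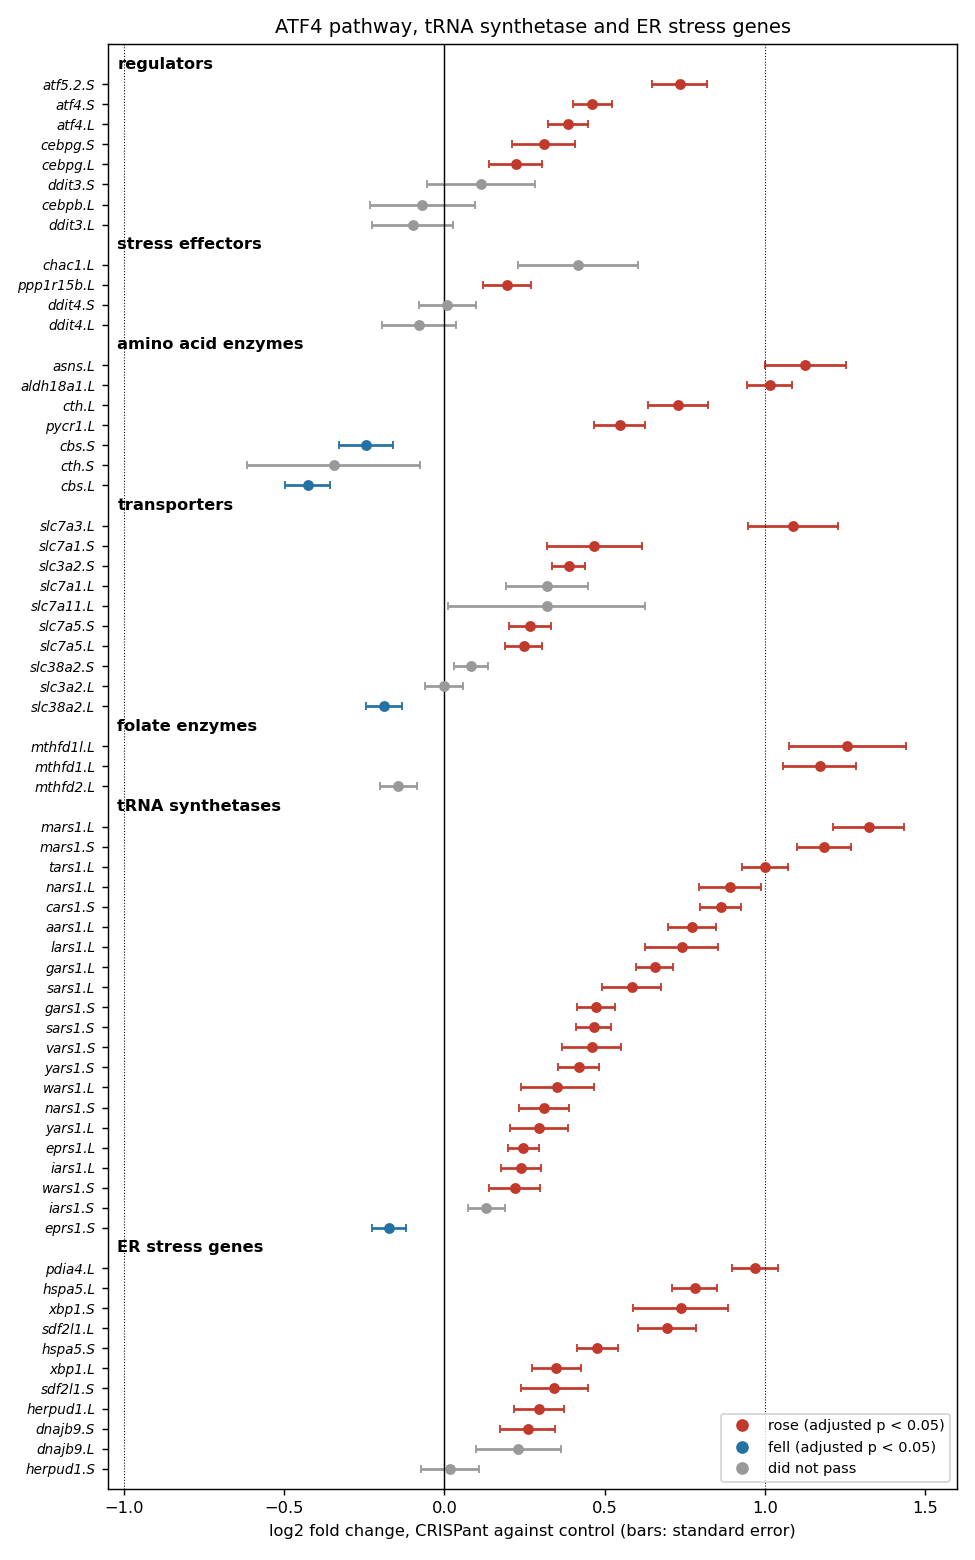
Log2 fold change (x axis, CRISPant against control) of each of the 64 tested gene copies, grouped by role, with standard errors as bars and dotted lines at 2-fold. Of the 21 tRNA synthetase copies 19 lie to the right of 0 and passed the test, and only eprs1.S fell among them.

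The cytosolic aminoacyl-tRNA synthetases, which attach each amino acid to its tRNA, had the highest share of copies that rose. Of 21 tested copies of 13 genes, 19 rose (90.5%), eprs1.S fell (4.76%) and iars1.S did not pass. The shares over all genes tested were 21.7% and 20.8%. The 21 copies had a median log2 fold change of 0.47. Their summed level was 1309 to 1429.6 CPM in the control pools and 1809 to 2069.5 CPM in the CRISPant pools. With the counts of L and S summed, 12 of the 13 synthetases rose and eprs1 did not pass (log2 fold change 0.09, adjusted p = 0.0842).

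Coordinates are those of the v10.1 assembly. The methionyl-tRNA synthetase mars1, whose product serves both initiation and elongation, had the highest fold changes of the group. mars1.L (chromosome 2L from 147871066 to 147900939) stood at 8.41, 8.07, 8.59 and 9.68 CPM in the control pools and at 24.2, 18.4, 18.9 and 25.6 CPM in the CRISPant pools (log2 fold change 1.32, SE 0.11, adjusted p = 1.5e-08, where SE is the standard error). mars1.S (chromosome 2S from 132259079 to 132286718) stood at 14.2, 14.2, 16.5 and 15.1 CPM in the control pools and at 32.8, 30.1, 34.7 and 38.7 CPM in the CRISPant pools (log2 fold change 1.18, SE 0.08, adjusted p = 1.2e-09). Each copy was more than 2-fold higher, and the lowest CRISPant pool was far above the highest control pool in both. The threonyl-tRNA synthetase tars1.L (chromosome 1L from 217595231 to 217644038) was at 36.4, 37.9, 38.4 and 41.2 CPM in the control pools and at 71.1, 69.6, 78.7 and 88.4 CPM in the CRISPant pools (log2 fold change 1.0003, SE 0.07, adjusted p = 1.4e-09). cars1.S, which loads cysteine, was at 43.3, 38.7, 46.7 and 40.5 CPM in the control pools and at 75.4, 71.6, 78.8 and 81.8 CPM in the CRISPant pools (log2 fold change 0.86, SE 0.06, adjusted p = 2.6e-09). tars1.L lay just past 2-fold. The groups were well apart for tars1.L and cars1.S too, with CRISPant pool 9 the highest for each.

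Among the remaining synthetases, the alanyl enzyme aars1.L rose from 187 ± 21.2 to 319.9 ± 25.4 CPM (mean ± SD of 4 pools in each group, log2 fold change 0.77). The leucyl enzyme lars1.L rose from 78.0 ± 12.8 to 130.2 ± 12.6 CPM (log2 fold change 0.74), although its control pools differed among themselves, with 66.9 and 66.8 CPM in pools 1 and 2 and 89.0 and 89.2 CPM in pools 4 and 5. Glycyl-tRNA synthetase rose in both copies, gars1.L with 0.66 and gars1.S with 0.47, and so did the seryl enzyme, sars1.L with 0.58 and sars1.S with 0.47. The rises of gars1.S, sars1.L and sars1.S were under 1.5-fold. So were those of the valyl enzyme vars1.S (0.46), the tyrosyl enzyme in yars1.S (0.42) and yars1.L (0.29), and the isoleucyl enzyme in iars1.L (0.24). iars1.S had 0.13 and missed the threshold (adjusted p = 0.075) with no overlap between groups. The tryptophanyl enzyme rose least firmly, wars1.L with 0.35 and wars1.S with 0.22. The call of wars1.L, whose groups overlapped, was lost without control pool 1 or 2 or CRISPant pool 3 (adjusted p up to 0.0677), and that of wars1.S without control pool 2 or 5 or CRISPant pool 7 or 9 (up to 0.103). Over all alternatives the adjusted p ran from 0.00645 to 0.0677 for wars1.L and from 0.0144 to 0.103 for wars1.S. The call of yars1.L was lost without CRISPant pool 9 (adjusted p = 0.0735), and iars1.S passed without CRISPant pool 4 (0.0497). The spans of yars1.L, iars1.L and iars1.S each overlap another annotated gene, and the strand setting of the counting is not given in the sources used here.

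The asparaginyl and the glutamyl-prolyl enzyme differed between their homeologues. nars1.L was at 42.5, 40.0, 52.7 and 42.0 CPM in the control pools and at 79.6, 71.9, 81.1 and 96.3 CPM in the CRISPant pools (log2 fold change 0.89, SE 0.10, adjusted p = 7.1e-06). nars1.S was at 17.4, 18.5, 18.4 and 19.2 CPM in the control pools and at 23.6, 23.2, 20.2 and 24.0 CPM in the CRISPant pools (log2 fold change 0.31, SE 0.08, adjusted p = 0.00297). Both rose without overlap, and L by more than S. eprs1.L was at 216, 222, 212 and 210.1 CPM in the control pools and at 249, 254, 252 and 265 CPM in the CRISPant pools (log2 fold change 0.25, SE 0.05, adjusted p = 3.5e-04), and every CRISPant pool lay above the controls. eprs1.S went the other way, at 131, 139, 148 and 149 CPM in the control pools and at 122, 124, 130.04 and 127 CPM in the CRISPant pools (log2 fold change -0.17, SE 0.05, adjusted p = 0.0132), with every CRISPant pool below the controls.

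**Figure D2:**
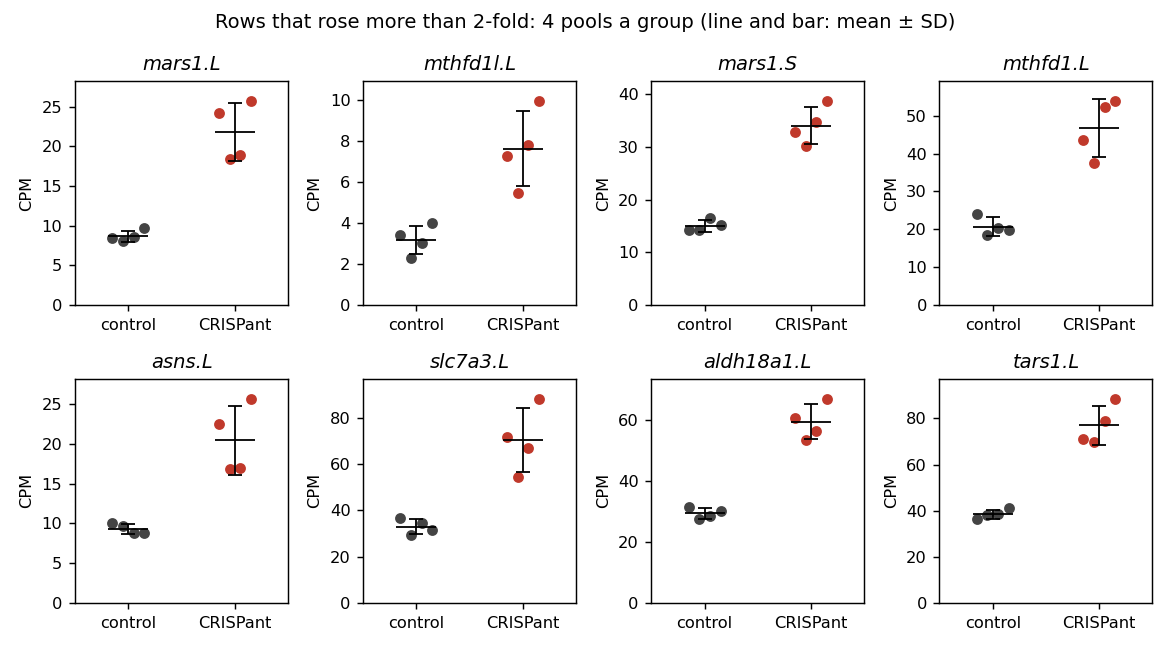
CPM (y axis, from 0) in each of the 4 control and 4 CRISPant pools for the 8 gene copies that rose more than 2-fold, with the mean and SD as a line and bar. In every panel the lowest CRISPant pool lies above the highest control pool.

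Synthetase genes outside the set rose in part, where 21.7% of all genes tested rose and 20.8% fell. Of 17 tested copies for the other cytosolic synthetases and for the scaffold proteins of the multisynthetase complex, 9 rose (52.9%), 1 fell (5.88%) and 7 did not pass. The smallest p among those that rose belonged to farsb.L (log2 fold change 1.09, adjusted p = 1.1e-09) and farsa.S (1.12, adjusted p = 2.9e-06), which encode the beta and alpha subunits of phenylalanyl-tRNA synthetase, and to the lysyl enzyme kars1.S (0.34, adjusted p = 6.1e-05). The other copies of the phenylalanyl enzyme, named after the values were seen, were farsa.L, with the largest rise of the list (1.43, adjusted p = 8.0e-05), and farsb.S, which did not pass (-0.0043, adjusted p = 0.983). The glutaminyl enzyme qars1.S fell, from 120.2 to 104 CPM (-0.22, adjusted p = 0.00886). Of 17 copies for mitochondrial synthetases, 9 rose (52.9%), none fell and 8 missed the threshold (median log2 fold change 0.28). Those with the smallest p were fars2.L (1.08), nars2.S (1.25) and lars2.L (0.59), which load phenylalanine, asparagine and leucine.

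Of the transcription factors of the pathway, atf4, atf5 and cebpg rose modestly, and ddit3 and cebpb did not pass. atf4.L (chromosome 4L from 118960376 to 118963170) was at 463, 469, 540.1 and 436 CPM in the control pools and at 588, 607, 625 and 674 CPM in the CRISPant pools (log2 fold change 0.39, SE 0.06, adjusted p = 4.6e-05). atf4.S (chromosome 4S from 99873603 to 99876447) was at 203, 202, 181 and 185 CPM in the control pools and at 258, 249, 261 and 295 CPM in the CRISPant pools (log2 fold change 0.46, SE 0.06, adjusted p = 3.2e-06). The groups did not overlap in either copy, and the rise was 1.31-fold and 1.38-fold. atf5, a related factor that is also controlled at translation, was represented by atf5.2.S, at 17.5, 19.4, 16.1 and 19.2 CPM in the control pools and at 32.4, 30.6, 25.7 and 31.4 CPM in the CRISPant pools (log2 fold change 0.73, SE 0.09, adjusted p = 8.3e-07). CRISPant pool 7 was the lowest of its group, and the groups did not overlap. cebpg, a dimer partner of ATF4, rose in cebpg.S (log2 fold change 0.31, SE 0.10, adjusted p = 0.014) and in cebpg.L (log2 fold change 0.22, SE 0.08, adjusted p = 0.034). The cebpg.L pools overlapped, and its call was lost without control pool 1, 2 or 5 or CRISPant pool 3 or 9 (adjusted p up to 0.170). The call of cebpg.S was lost without CRISPant pool 9 (adjusted p = 0.0530).

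ddit3 encodes CHOP, which is induced under prolonged stress and promotes cell death. ddit3.L was at 5.66, 5.66, 4.90 and 6.20 CPM in the control pools and at 4.65, 5.45, 4.95 and 5.83 CPM in the CRISPant pools (log2 fold change -0.10, SE 0.13, adjusted p = 0.561). ddit3.S was at 2.29, 2.55, 2.79 and 2.77 CPM in the control pools and at 2.43, 2.76, 3.27 and 2.73 CPM in the CRISPant pools (log2 fold change 0.11, SE 0.17, adjusted p = 0.614). The groups overlapped in both, and ddit3 counted over both copies had -0.03 on the log2 scale (adjusted p = 0.845). cebpb.L, another stress-responsive factor, had -0.07 (adjusted p = 0.763), and cebpb.S was not tested, with 3 to 10 counts a pool.

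Upstream of ATF4, among eIF2, its kinases and its exchange factor eIF2B, 8 of 17 tested copies rose (47.1%), none fell and 9 did not pass. Over all genes tested, 21.7% rose and 20.8% fell. The 17 copies had a median log2 fold change of 0.18. Those with the smallest p were eif2b2.L (0.60, adjusted p = 2.5e-07), eif2s1.S, the subunit that is phosphorylated (0.52), and eif2b4.L (0.37). All 4 tested kinase copies are given here, named after the values were seen. eif2ak3.S (PERK, the ER sensor) rose (0.36, adjusted p = 0.0119). eif2ak1.L (HRI, the heme sensor) had -0.05 (adjusted p = 0.742), eif2ak2.L (PKR, the sensor of double-stranded RNA) had 0.60 (adjusted p = 0.193) and eif2ak4.L (GCN2, the amino acid sensor) had 0.04 (adjusted p = 0.618), and none of these 3 passed. Differences between the kinases were not tested. Phosphorylation itself was not measured.

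Only 3 of the 6 stress effector symbols had a row, and those absent were trib3, eif4ebp1 and ppp1r15a. Counted by copy, this group had the lowest share of the set that rose, 1 of 4 tested (25%), near the 21.7% of all genes. With homeologues summed, 2 of the 3 symbols rose. chac1 encodes an enzyme that degrades glutathione and in mammalian cells is a sharply induced target of ATF4. chac1.L was at 2.48, 2.87, 2.20 and 1.74 CPM in the control pools and at 3.39, 3.16, 2.41 and 3.52 CPM in the CRISPant pools (log2 fold change 0.42, SE 0.19, adjusted p = 0.0783). The groups overlapped through CRISPant pool 7 and control pools 1 and 2. chac1.S had 4, 5, 6 and 6 counts in the control pools and 9, 10, 10 and 14 in the CRISPant pools, too few for the test. With no filter its log2 fold change was 1.05 (SE 0.47, adjusted p = 0.0862). With the counts of both copies summed, chac1 rose (log2 fold change 0.49, adjusted p = 0.0335), and chac1.L alone passed without control pool 2 (adjusted p = 0.0451) and without CRISPant pool 7 (0.0337).

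ddit4, whose product REDD1 restrains the growth kinase mTORC1, did not pass in either copy. ddit4.L was at 30.0, 35.4, 28.4 and 29.7 CPM in the control pools and at 29.5, 34.4, 22.05 and 30.8 CPM in the CRISPant pools (log2 fold change -0.08, SE 0.12, adjusted p = 0.618). ddit4.S was at 17.4, 19.5, 21.8 and 17.7 CPM in the control pools and at 20.9, 19.9, 17.0 and 19.3 CPM in the CRISPant pools (log2 fold change 0.01, SE 0.09, adjusted p = 0.946). Its direction changed with the pools left out, and the groups overlapped. ppp1r15b.L, a constitutive subunit that directs a phosphatase to eIF2, rose slightly, at 24.4, 23.7, 25.4 and 23.2 CPM in the control pools and at 25.5, 25.8, 30.4 and 29.1 CPM in the CRISPant pools (log2 fold change 0.20, SE 0.07, adjusted p = 0.04). Its call was lost without control pool 1, 2 or 5 or CRISPant pool 7 or 9 and with library totals as the only scaling (adjusted p over all alternatives from 0.0224 to 0.146), and its span overlaps another annotated gene.

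Other genes that ATF4 induces in mammals went both ways. Of 22 tested copies, 5 rose, 6 fell and 11 did not pass, with a median log2 fold change of -0.03 and shares of 22.7% and 27.3%, near those over all genes. Those that rose with the smallest p were neutral amino acid transporters, slc1a4.L (0.48), slc1a5.L (1.05) and slc1a5.S (0.44). Those that fell with the smallest p were klhl24.L (-0.74), a ubiquitin ligase adaptor, and the transcription factor gene cebpd, with -0.80 for cebpd.L and -0.95 for cebpd.S.

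Enzymes of amino acid synthesis rose for asparagine and proline and fell for cystathionine beta-synthase. asns.L (chromosome 6L from 34214071 to 34244597) encodes asparagine synthetase and was at 10.11, 9.64, 8.77 and 8.84 CPM in the control pools and at 22.5, 16.8, 16.9 and 25.6 CPM in the CRISPant pools (log2 fold change 1.13, SE 0.13, adjusted p = 2.4e-06). It was more than 2-fold higher, and its CRISPant pools split into 2 near 17 CPM and 2 above 22 CPM. aldh18a1.L (chromosome 7L from 19915802 to 19942845), which makes the first intermediate of proline from glutamate, was at 31.3, 27.5, 28.3 and 30.1 CPM in the control pools and at 60.7, 53.5, 56.3 and 66.8 CPM in the CRISPant pools (log2 fold change 1.01, SE 0.07, adjusted p = 9.8e-10). pycr1.L, which carries out the last step of the same route, was at 17.4, 14.98, 16.4 and 15.5 CPM in the control pools and at 24.2, 21.1, 24.2 and 24.4 CPM in the CRISPant pools (log2 fold change 0.55, SE 0.08, adjusted p = 1.5e-05). The groups did not overlap in any of these 3 copies.

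In the route from homocysteine to cysteine, the enzymes of the consecutive steps moved in opposite directions. cbs.L, the entry step, was at 49.2, 46.0, 56.8 and 46.0 CPM in the control pools and at 35.6, 39.4, 35.9 and 36.4 CPM in the CRISPant pools (log2 fold change -0.43, SE 0.07, adjusted p = 5.6e-05), with every CRISPant pool below the controls. cbs.S was at 26.9, 25.6, 33.3 and 28.7 CPM in the control pools and at 24.8, 22.1, 26.9 and 22.96 CPM in the CRISPant pools (log2 fold change -0.24, SE 0.09, adjusted p = 0.0259), with overlap, and its call was lost without control pools 4 or 5 and without CRISPant pools 4 or 9 (adjusted p up to 0.123). cth.L, cystathionine gamma-lyase, which releases cysteine, rose, at 14.7, 13.6, 18.2 and 13.6 CPM in the control pools and at 25.6, 22.1, 25.1 and 26.8 CPM in the CRISPant pools (log2 fold change 0.73, SE 0.09, adjusted p = 3.4e-06). cth.S was near 1 CPM in all pools, at 1.32, 1.16, 0.900 and 1.03 CPM in the control pools and at 1.16, 0.8288, 0.603 and 0.926 CPM in the CRISPant pools, and did not pass (log2 fold change -0.35, SE 0.27, adjusted p = 0.321).

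Of the folate enzymes, mthfd1 and mthfd1l rose, and mthfd2 missed the threshold on the side of a fall. mthfd1.L (chromosome 8L from 92261249 to 92296485), a cytosolic enzyme with 3 activities, was at 24.1, 18.5, 20.5 and 19.8 CPM in the control pools and at 43.5, 37.6, 52.3 and 53.7 CPM in the CRISPant pools (log2 fold change 1.17, SE 0.11, adjusted p = 2.6e-06). mthfd1l.L (chromosome 5L from 45144249 to 45265901), which makes mitochondrial formate, was at 3.41, 2.32, 3.01 and 4.00 CPM in the control pools and at 7.30, 5.49, 7.84 and 9.95 CPM in the CRISPant pools (log2 fold change 1.26, SE 0.18, adjusted p = 2.4e-05). Both were more than 2-fold higher, with CRISPant pool 4 the lowest and pool 9 the highest of their group. mthfd2.L, the mitochondrial dehydrogenase and in mammals a known ATF4 target, was at 92.7, 99.6, 101.1 and 88.5 CPM in the control pools and at 88.3, 87.0, 79.9 and 90.7 CPM in the CRISPant pools (log2 fold change -0.14, SE 0.06, adjusted p = 0.0529). The groups overlapped, and it passed as lower with library totals as the only scaling (adjusted p = 0.0349), with a filter of at least 1 CPM in at least 4 samples (0.0450), in the table with homeologues summed (0.0473), and without control pool 5 (0.0246) or CRISPant pool 9 (0.0434).

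Of 18 tested copies of other folate enzymes, 9 rose (50%), 1 fell (5.56%) and 8 missed the threshold (median log2 fold change 0.34). The shares over all genes tested were 21.7% and 20.8%. mthfd2l.S, a paralogue of mthfd2, rose from 19.9 ± 0.661 to 38.1 ± 4.47 CPM (log2 fold change 0.94, adjusted p = 1.2e-08). It had the smallest p of those that rose, before aldh1l2.S, a mitochondrial 10-formyl-tetrahydrofolate dehydrogenase (0.64, adjusted p = 8.4e-08), and dhfr.L, dihydrofolate reductase (0.96, adjusted p = 4.3e-06). The cytosolic counterpart of aldh1l2, aldh1l1.L, which is also a marker of astroglia, fell from 38.2 ± 3.05 to 11.6 ± 1.72 CPM (-1.72). Of 12 tested copies of radial glia and astroglia markers, 3 rose (25%) and 4 fell (33.3%), beside 21.7% and 20.8% of all genes tested. Those that fell were aldh1l1.L itself, glul.L (-0.89), glul.S (-0.86) and slc1a2.S (-0.15). Those that rose were vim.L (0.53), fabp7.L (0.43) and slc1a3.S (0.22). The summed level of these markers was 3228 to 3588 CPM in the control pools and 3424 to 3730.5 CPM in the CRISPant pools, with fabp7.L the largest row. The part of these markers in the fall of aldh1l1.L was not tested.

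Among amino acid transporters, 5 of 10 tested copies rose (50%), slc38a2.L fell (10%) and 4 did not pass. The shares over all genes tested were 21.7% and 20.8%. The cationic amino acid carrier slc7a3.L (chromosome 8L from 35614584 to 35639792) was at 36.7, 29.3, 34.5 and 31.3 CPM in the control pools and at 71.6, 54.5, 66.8 and 88.0 CPM in the CRISPant pools (log2 fold change 1.09, SE 0.14, adjusted p = 2.4e-04). It was the only transporter copy of the set changed by more than 2-fold, and its CRISPant pools ranged from 54.5 to 88.0 CPM. The related carrier slc7a1 had 0.47 in slc7a1.S (adjusted p = 0.0143), whose groups overlapped. slc7a1.L had 0.32 and missed the threshold (adjusted p = 0.0501) although its groups did not overlap. Over both copies together, slc7a1 rose by 0.38 on the log2 scale (adjusted p = 0.0043). Without control pool 4, slc7a1.S had an adjusted p of 0.0559. slc7a1.L passed with the likelihood ratio test (0.0491) and without CRISPant pool 4 (0.0284) or 7 (0.0301).

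SLC7A5 and SLC3A2 form the carrier of large neutral amino acids. slc7a5.L was at 137, 151, 161 and 152 CPM in the control pools and at 177, 165, 186 and 185 CPM in the CRISPant pools (log2 fold change 0.25, SE 0.06, adjusted p = 0.00159). slc7a5.S rose by a similar amount (log2 fold change 0.27, SE 0.07, adjusted p = 0.00237), and neither copy overlapped between groups. slc3a2.S was at 169.6, 167, 174 and 177 CPM in the control pools and at 222, 214, 223 and 242 CPM in the CRISPant pools (log2 fold change 0.39, SE 0.05, adjusted p = 4.8e-06), whereas slc3a2.L was at 257, 278, 319.7 and 276 CPM in the control pools and at 274, 289, 289 and 278 CPM in the CRISPant pools (log2 fold change -0.0012, SE 0.06, adjusted p = 0.99). The S copy was higher in every CRISPant pool and the L copy overlapped. slc38a2, a sodium-coupled carrier of small neutral amino acids, fell in slc38a2.L, at 67.0, 69.7, 63.7 and 66.5 CPM in the control pools and at 60.7, 60.7, 56.3 and 56.5 CPM in the CRISPant pools (log2 fold change -0.19, SE 0.06, adjusted p = 0.00923). slc38a2.S was at 95.6, 95.1, 85.4 and 93.0 CPM in the control pools and at 98.3, 98.6, 93.1 and 100.9 CPM in the CRISPant pools and did not pass (log2 fold change 0.08, SE 0.05, adjusted p = 0.23). The cystine and glutamate exchanger slc7a11 was scarce, with 9 to 31 counts a pool for slc7a11.L (log2 fold change 0.32, SE 0.31, adjusted p = 0.429) and 1 to 8 for slc7a11.S, which was not tested.

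In the ER stress group, 9 of 11 tested copies rose (81.8%), none fell and 2 did not pass. The shares over all genes tested were 21.7% higher and 20.8% lower. The group had a median log2 fold change of 0.35. Its summed level was 406 to 424 CPM in the control pools and 562 to 674 CPM in the CRISPant pools. hspa5 encodes BiP, the main HSP70 chaperone of the ER. hspa5.L (chromosome 8L from 18373410 to 18382559) was at 109, 101.4, 104 and 94.2 CPM in the control pools and at 169, 157, 173 and 203 CPM in the CRISPant pools (log2 fold change 0.78, SE 0.07, adjusted p = 5.8e-08). hspa5.S was at 183, 179.6, 193 and 186 CPM in the control pools and at 236, 233, 273 and 289.6 CPM in the CRISPant pools (log2 fold change 0.48, SE 0.06, adjusted p = 5.4e-06). Each copy was without overlap between the groups. pdia4.L, a disulfide isomerase on chromosome 6L from 69648354 to 69670568, was at 23.5, 19.9, 21.3 and 21.9 CPM in the control pools and at 40.3, 41.1, 46.2 and 42.0 CPM in the CRISPant pools (log2 fold change 0.97, SE 0.07, adjusted p = 1.8e-09). It had the smallest p of the group and CRISPant pool 7 as its highest. sdf2l1, a partner of BiP, rose in both copies. sdf2l1.L was at 9.84, 10.3, 9.49 and 8.93 CPM in the control pools and at 16.2, 14.6, 15.2 and 16.6 CPM in the CRISPant pools (log2 fold change 0.69, SE 0.09, adjusted p = 3.2e-06), and sdf2l1.S was at 8.79, 7.33, 8.82 and 7.38 CPM in the control pools and at 10.8, 9.51, 10.3 and 10.5 CPM in the CRISPant pools (log2 fold change 0.34, SE 0.10, adjusted p = 0.012).

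xbp1, whose mRNA is spliced by the ER sensor IRE1 to yield an active transcription factor, rose in xbp1.L (log2 fold change 0.35, SE 0.08, adjusted p = 8.7e-04) and xbp1.S (log2 fold change 0.74, SE 0.15, adjusted p = 4.1e-04). Counts per gene do not separate its spliced from its unspliced form. herpud1, a factor of ER-associated degradation, rose in herpud1.L (0.30, adjusted p = 0.00421), and herpud1.S had 0.02 (adjusted p = 0.89). dnajb9, another partner of BiP, rose in dnajb9.S (0.26, adjusted p = 0.0179), and dnajb9.L had 0.23 (adjusted p = 0.173). The dnajb9.S pools overlapped, and its call was lost without control pool 1 (adjusted p = 0.0646) or CRISPant pool 9 (0.0632). With the counts of both copies summed, herpud1 (0.19, adjusted p = 0.0196) and dnajb9 (0.25, adjusted p = 0.0154) rose.

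Among 43 tested copies of other ER chaperones and unfolded protein response genes, 24 rose (55.8%), none fell and 19 missed the threshold. Over all genes tested, 21.7% rose and 20.8% fell. The log2 fold changes of the 43 copies had a median of 0.25 and ran from -0.33 to 1.17. Every CRISPant pool lay above every control pool in 20 of these copies and below in 2, beside 19.4% and 18.5% of all genes. sec61b.L, a subunit of the channel through which proteins enter the ER, rose from 60.7 ± 3.13 to 97.0 ± 2.45 CPM (log2 fold change 0.68, adjusted p = 6.1e-09). It had the smallest p of the list, and the disulfide isomerase pdia6.L (0.77, adjusted p = 4.4e-08) and the BiP nucleotide exchange factor hyou1.L (0.73, adjusted p = 7.6e-08) had the next smallest. The largest rise, named after the values were seen, was that of the scarce copy creld2.S, from 0.794 ± 0.226 to 1.83 ± 0.464 CPM (1.17, adjusted p = 0.00128).

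**Figure D3:**
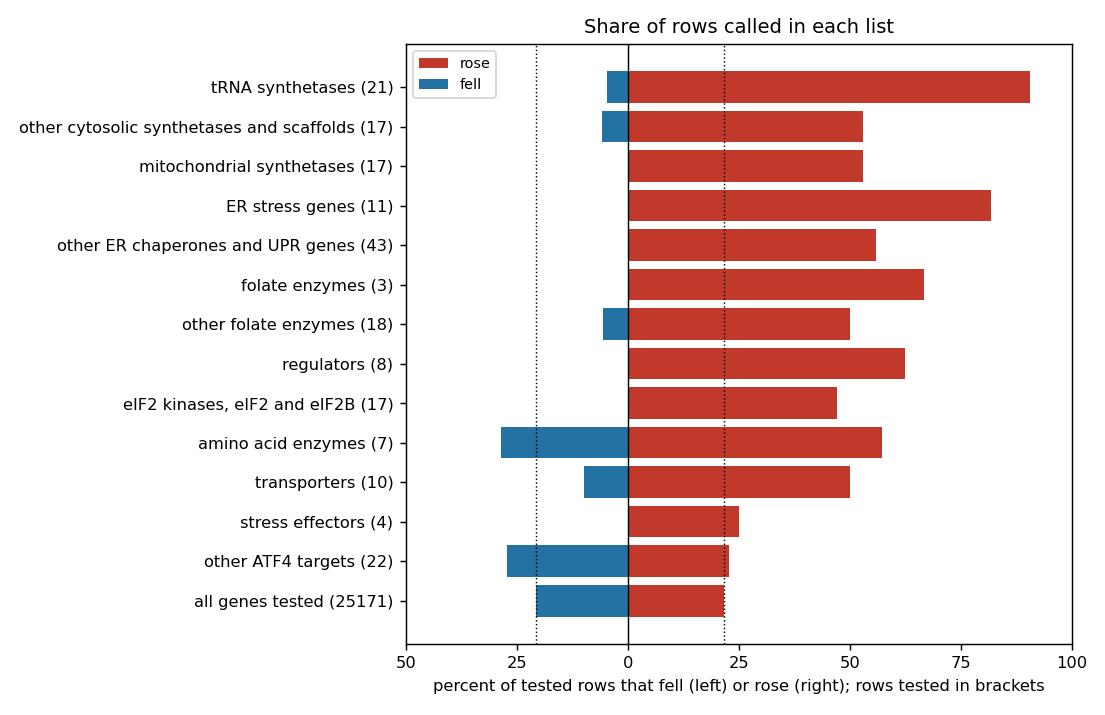
Percent of tested gene copies that rose (right) or fell (left) in each group of the set and in each list of related genes, with the number tested in brackets and dotted lines at the shares over all 25171 genes (21.7% and 20.8%). The tRNA synthetases (90.5%) and ER stress genes (81.8%) have the longest bars, and the other ATF4 targets lie near the lines.

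By share of copies that rose, the groups ran from the tRNA synthetases (90.5%) and ER stress genes (81.8%) through folate enzymes (66.7%), transcription factors (62.5%), amino acid enzymes (57.1%) and transporters (50%) to the stress effectors (25%). Median log2 fold changes ran in another order, with 1.17 for the 3 folate copies, 0.55 for amino acid enzymes, 0.47 for synthetases, 0.35 for ER stress genes, 0.29 for transporters, 0.27 for transcription factors and 0.10 for stress effectors. Differences between the groups were not tested, and several hold few copies. With homeologues summed, 2 of 3 stress effector symbols, 3 of 5 transcription factor symbols, 12 of 13 synthetase symbols and every ER stress symbol rose. The order by share, its first place included, thus depends on counting by copy.

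In 23 pairs both homeologues were tested, and the balance of L against S shifted in CRISPants in 7 of them (limma on log2 CPM, adjusted over all 7427 pairs of the table). Of all pairs, 24% did so, a share near that of the members. The L copy gained on the S copy in 5 of the 7 member pairs, and the direction over all pairs was not counted. For eprs1 the copies moved apart, L up and S down (log2 L over S 0.60 in control and 1.02 in CRISPant pools, difference 0.42, SE 0.07, adjusted p = 0.00525). For nars1 both rose and L by more (log2 L over S 1.26 in control and 1.84 in CRISPant pools, difference 0.58, SE 0.12, adjusted p = 0.0115). For cth, L rose and S, near 1 CPM, did not pass (log2 L over S 3.67 in control and 4.72 in CRISPant pools, difference 1.05, SE 0.22, adjusted p = 0.0118). The same direction was found for hspa5 (log2 L over S -0.86 in control and -0.55 in CRISPant pools, difference 0.31, SE 0.07, adjusted p = 0.0188) and sdf2l1 (log2 L over S 0.26 in control and 0.60 in CRISPant pools, difference 0.34, SE 0.09, adjusted p = 0.0249). The S copy gained in the transporter pairs slc3a2 (log2 L over S 0.71 in control and 0.33 in CRISPant pools, difference -0.38, SE 0.08, adjusted p = 0.0129) and slc38a2 (log2 L over S -0.47 in control and -0.74 in CRISPant pools, difference -0.27, SE 0.06, adjusted p = 0.0132). The call of sdf2l1 was lost without control pool 1, 4 or 5 or CRISPant pool 3, 4 or 9 (adjusted p from 0.0509 to 0.0644), and that of hspa5 without CRISPant pool 3 (0.0504) or 9 (0.0509), all from limma. Pairs with called copies and no detected difference in ratio included atf4 (adjusted p = 0.618), mars1 (adjusted p = 0.407) and slc7a5 (adjusted p = 0.887). How the counting treated reads that match both homeologues is not given in the sources used here.

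**Figure D4:**
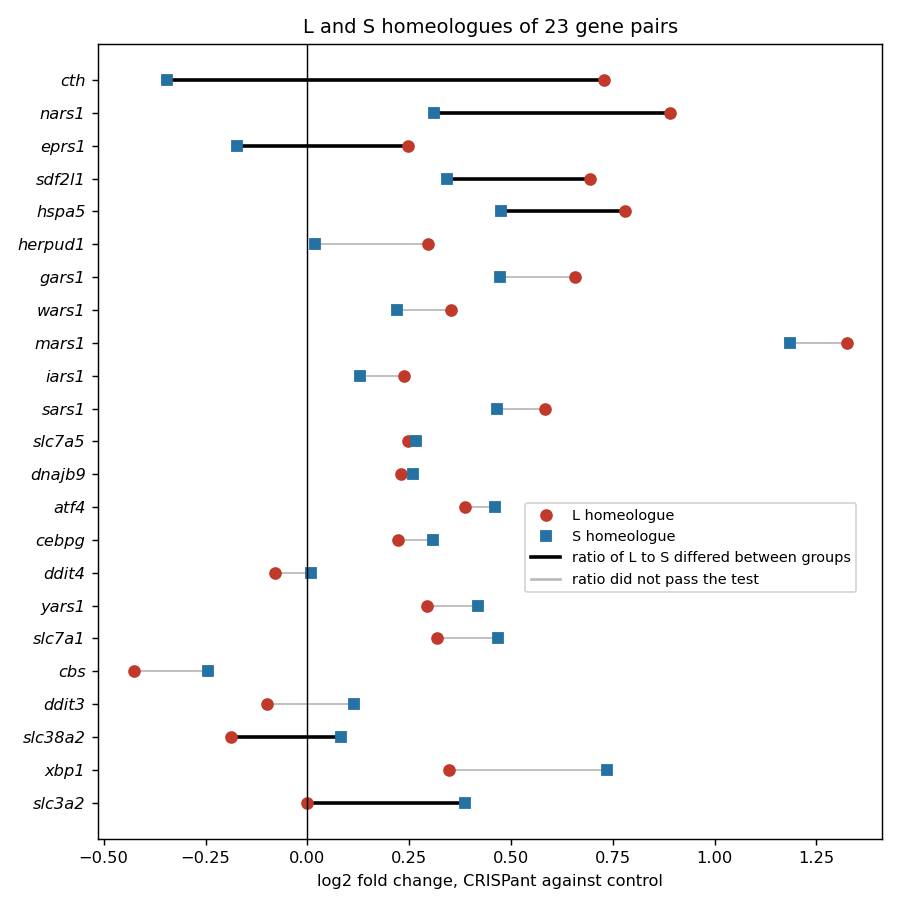
Log2 fold change (x axis, CRISPant against control) of the L copy (circles) and the S copy (squares) in the 23 pairs with both tested, ordered by the difference between groups in log2 L over S. Black bars join the 7 pairs whose ratio differed, and in eprs1 the L copy rose and the S copy fell.

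The CRISPant pools did not share the rise equally. Among the 45 copies that rose, pool 9 was the highest CRISPant pool in 36 (80.0%) and pool 4 the lowest in 32 (71.1%). Among all 5454 genes that rose, these shares were 38.0% and 41.4%. Summed over the 21 synthetase copies, levels were 1894 CPM in pool 3, 1809 CPM in pool 4, 1928 CPM in pool 7 and 2069.5 CPM in pool 9. Summed neurod2 was 67.5, 76.9, 61.3 and 45.7 CPM in the same pools. Among these, the pool with the least neurod2 had the most synthetase RNA, and the pool with the most had the least. In control pools 1, 2, 4 and 5, synthetase sums were 1308.9, 1318.2, 1429.6 and 1370.7 CPM. Their neurod2 sums were 89.1, 85.3, 84.0 and 73.2 CPM. The control pool with the most neurod2 also had the least synthetase RNA, but that with the least neurod2 did not have the most. Between the groups, CRISPant pool 4 had more neurod2 than control pool 5 (76.9 against 73.2 CPM). It also had more synthetase RNA (1809 against 1370.7 CPM). Summed cell division markers were 1163, 1030.4, 1317 and 1287 CPM in CRISPant pools 3, 4, 7 and 9, with pool 4 again the lowest and pool 7 the highest. With 4 CRISPant pools no relation across them was tested, and the copies are not independent of each other. Without pool 9, 39 copies rose and 4 fell.

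**Figure D5:**
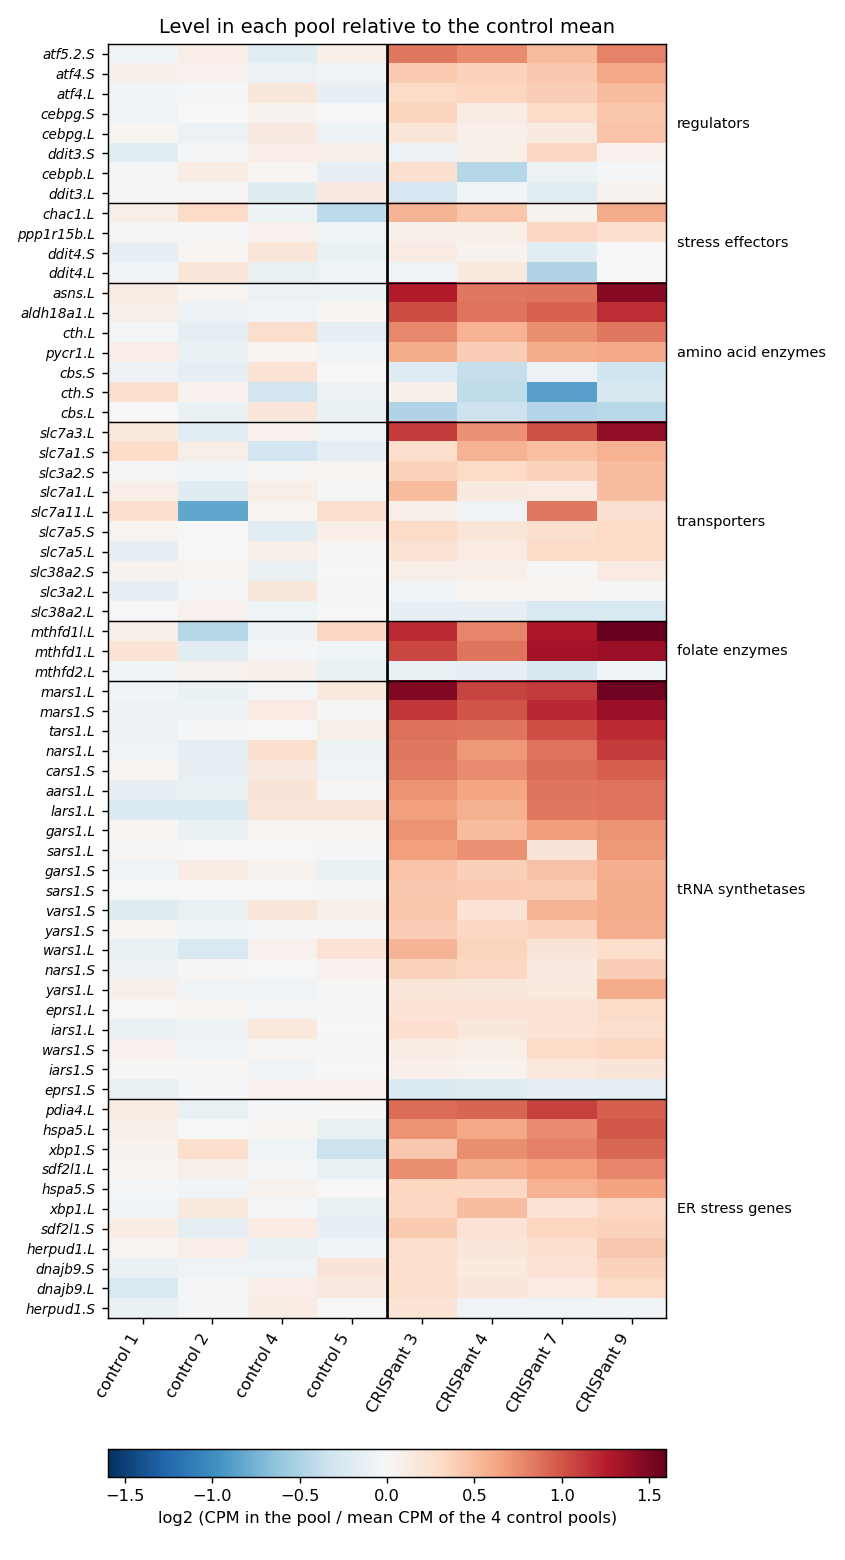
Heat map of the level of each of the 64 tested gene copies (rows, by role) in each pool (columns), as the log2 of the CPM over the mean CPM of the 4 control pools. Red marks levels above the control mean, and the column of CRISPant pool 9 is the darkest in 36 of the 45 copies that rose.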

How the data were processed

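RNA of 8 pools of whole brains was sequenced as single reads from stranded mRNA libraries. The authors mapped reads to XENLA_10.1 with DRAGEN and deposited whole-number counts per gene from FeatureCounts, with no normalisation; strand and multi-mapping settings are not given in the sources used here. Columns were matched to samples by library name. The authors describe the pools as biological replicates, and each counts as its own sample. No replicate pair agreed within sampling noise, which by itself cannot show that pools are independent.

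The main test was edgeR 4.0.16 (R 4.3.3): quasi-likelihood with the robust option, TMM scaling, a design of condition alone, and filterByExpr at a minimum count of 10. An SE is the size of the log2 fold change over the square root of F. L against S was compared as a difference of log2 CPM (prior count 2) in limma 3.58.1. Alternatives were DESeq2 1.42.0, other scaling, filters and edgeR tests, summed homeologues, and each pool left out. Scripts were tested on simulated data.

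Members, groups and lists were chosen with earlier results of these data known. Values per pool were given for copies changed more than 2-fold, the 3 smallest p in each group, pairs whose ratio differed, and atf4, ddit3, chac1, asns and hspa5. Further copies were given the same way after their values were seen. From each related list up to 3 copies in each direction were named. Of 67 rows, 65 matched a RefSeq symbol of the v10.1 assembly, which gave coordinates. No sequences were used.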

Additional observations from a re-analysis of the deposited data

Results flagged for a closer look

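In each group of 4 pools, the highest and lowest values were compared with the rest by Dixon's ratio, the gap to the nearest pool over the whole range. Of 132 groups checked, 7 were past the 95% critical value, where chance alone gives about 1 in 20. CRISPant pool 4 stood under the others for pycr1.L (21.1 against 24.2 CPM and above, ratio 0.936). Control pool 2 stood under the others for gars1.L (105.8 against 116.3 CPM and above, ratio 0.952). CRISPant pool 7 stood under the others for sars1.L (63.6 against 87.5 CPM and above, ratio 0.860). CRISPant pool 9 stood over the others for sars1.S (111.5 against 99.4 CPM and below, ratio 0.868) and for yars1.L (32.3 against 24.3 CPM and below, ratio 0.948). CRISPant pool 3 stood over the others for herpud1.S (17.0 against 14.3 CPM and below, ratio 0.913), and control pool 5 for dnajb9.S (20.6 against 17.1 CPM and below, ratio 0.843). Without CRISPant pool 9, yars1.L had a log2 fold change of 0.18 and an adjusted p of 0.0735 (edgeR).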

How the results depend on the processing

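No paired analysis was run, because the labels do not pair control pools with CRISPant pools. Under 15 alternatives, 37 of the 45 copies that rose and 3 of the 4 that fell kept their direction and call throughout, and between 39 and 47 copies rose and 3 and 4 fell with 1 pool left out. With pools left out, 17 to 20 synthetase copies and 8 to 9 ER stress copies rose, 3 to 5 transcription factors, 0 to 1 stress effectors and 4 to 6 transporters rose, 1 to 2 amino acid enzymes and 0 to 1 folate enzymes fell, and 5 to 7 pairs differed in ratio. The stress effector count was 0 with library totals only, and 1 folate copy fell there and with the CPM filter. Counting each symbol once, with homeologues summed, 3 transcription factors, 2 stress effectors and 12 synthetases rose, 1 amino acid enzyme, 1 folate enzyme, 0 transporters and 0 synthetases fell, and 2 symbols of the whole set fell. Some of these counts are lower partly because a symbol then counts once. Those of stress effectors that rose and of folate enzymes that fell were higher than with copies counted apart.

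Signs changed only in copies that did not pass. ddit4.S was at -0.000287 with library totals only and slc3a2.L at 0.00185 with no filter. With pools left out, log2 fold changes ran from -0.18 to 0.047 for cebpb.L, -0.17 to 0.035 for ddit4.L, -0.035 to 0.077 for ddit4.S, -0.045 to 0.061 for slc3a2.L and -0.0499 to 0.056 for herpud1.S. The cause of these changes was not tested. slc7a11.S, chac1.S and cebpb.S had too few counts to be tested, and the few counts of slc7a11.L and cth.S gave wide standard errors (0.31 and 0.27 on the log2 scale).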
